A study of Canis lupus familiaris with 22 samples.

Results

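Genes that encode regulators of chromatin or chromosome structure were examined in canine invasive urothelial carcinoma (iUC). The 10 genes were ARID1A, KMT2C, KMT2D, KDM6A, CREBBP, EP300, EZH2, STAG2, DNMT1 and DNMT3A. Some of them are recurrently mutated in human bladder cancer. Members were found on the Affymetrix Canine 2.0 array, in which sets of short probes report each transcript, as the probe sets whose platform annotation gives 1 of the 10 symbols and no other. This gave 16 probe sets for 8 of the 10 genes, among 15115 genes measured in the same way. KMT2C and EP300 had no such probe set and were not analysed here. Gene expression was compared between 18 iUC samples and 4 normal bladder samples, with 1 array a sample. The iUC samples were cystoscopic biopsies from pet dogs whose naturally-occurring tumors had not yet been treated, and the normal samples came from bladders of healthy dogs of similar age. The labels name the samples of each group as biological replicates, and the dogs of the groups differ. Mutations were not measured, and a transcript value does not show whether a gene is mutated.

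Chromatin regulators help decide which genes can be read. ARID1A is a subunit of the BAF remodelling complex, which moves nucleosomes. KMT2C and KMT2D methylate histone H3 on lysine 4 at enhancers, working beside KDM6A, which removes methyl groups from another lysine of the same histone (H3K27), and beside the acetyltransferases CREBBP and EP300. EZH2, the catalytic subunit of Polycomb repressive complex 2 (PRC2), places the H3K27 methylation that KDM6A takes away. STAG2 is a subunit of cohesin, the ring that holds sister chromatids together and shapes chromatin loops, while DNMT1 maintains DNA methylation after replication and DNMT3A adds it anew. In human bladder cancer most of the mutations in ARID1A, KMT2D, KDM6A and STAG2 are of the inactivating kind.

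The deposited values are on a log2 scale and are centred on the median of each probe set over the 22 arrays. A value of 1 therefore means 2-fold above the middle array for that probe set, and levels of different genes cannot be set against each other. For a gene with several probe sets their values were averaged. Genes were compared with limma across all 15115 genes, and a gene was called where its Benjamini-Hochberg adjusted p was 0.05 or below and its change at least 2-fold. Markers of the tissue set the groups apart. The mean of 10 smooth muscle markers lay between -0.74 and 1.71 in iUC samples and between 3.29 and 5.02 in normal bladder samples, with 8 of the 10 lower in iUC. Of 12 urothelial markers 5 were higher in iUC, among them CDH1 and KRT7, and 17 of 24 cell division genes were higher, among them TOP2A. Of 8 fibroblast markers 6 were lower and 1 was higher, of 6 endothelial markers 2 were lower, and of 9 leukocyte markers 0 were called by limma, 0 by an unpaired test of each gene and 0 at an unadjusted p of 0.05. In such bulk samples fewer cells of a type and less RNA per cell cannot be told apart.

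The iUC arrays also fell into 2 sets by their control probes. The array carries 17 Tag probe sets made for artificial sequences absent from dog RNA. Their mean lay between 0.28 and 0.46 on 7 iUC arrays and between -0.13 and 0.13 on the other 11. It lay between -0.21 and -0.08 on the normal arrays. The 7 arrays are called the high Tag set and the 11 the low Tag set below. This split was made from the control probes alone, has no label behind it, and was compared after the data had been seen. The study also divided its tumors by clustering, into groups as large as these sets, but the labels do not tell which sample fell in which, and whether those groups coincide with the Tag sets was not tested. The part that the control signal, or whatever moved with it, has in the results was not tested, so values are given for each set.

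Among the 8 regulators measured, KMT2D transcripts were lower in iUC and none of the other 7 were called. The enhancer methyltransferase KMT2D was 2.11-fold lower. CREBBP and DNMT3A lay slightly below normal bladder, DNMT1 slightly above it, and ARID1A, EZH2 and STAG2 differed from it by 0.07, 0.14 and -0.02 on the log2 scale. With 0 of 8 called higher and 1 of 8 called lower, the regulators compare with 3.68% and 8.64% of all genes, and 12.3% in either direction. The median change of the 8 was -0.16 on the log2 scale, beside 0.08 over all genes. The ranges of iUC and normal samples overlapped for 8 of 8 regulators, where 7.69% of all genes had no overlap. For ARID1A, CREBBP, STAG2, DNMT1 and DNMT3A, 5 of the 8, the 95% confidence interval of the change lay inside 2-fold in both directions. For ARID1A and STAG2 this interval is that of a mean over probe sets whose changes had opposite signs. None of those changes passed the adjusted p, as given below.

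**Figure D1:**
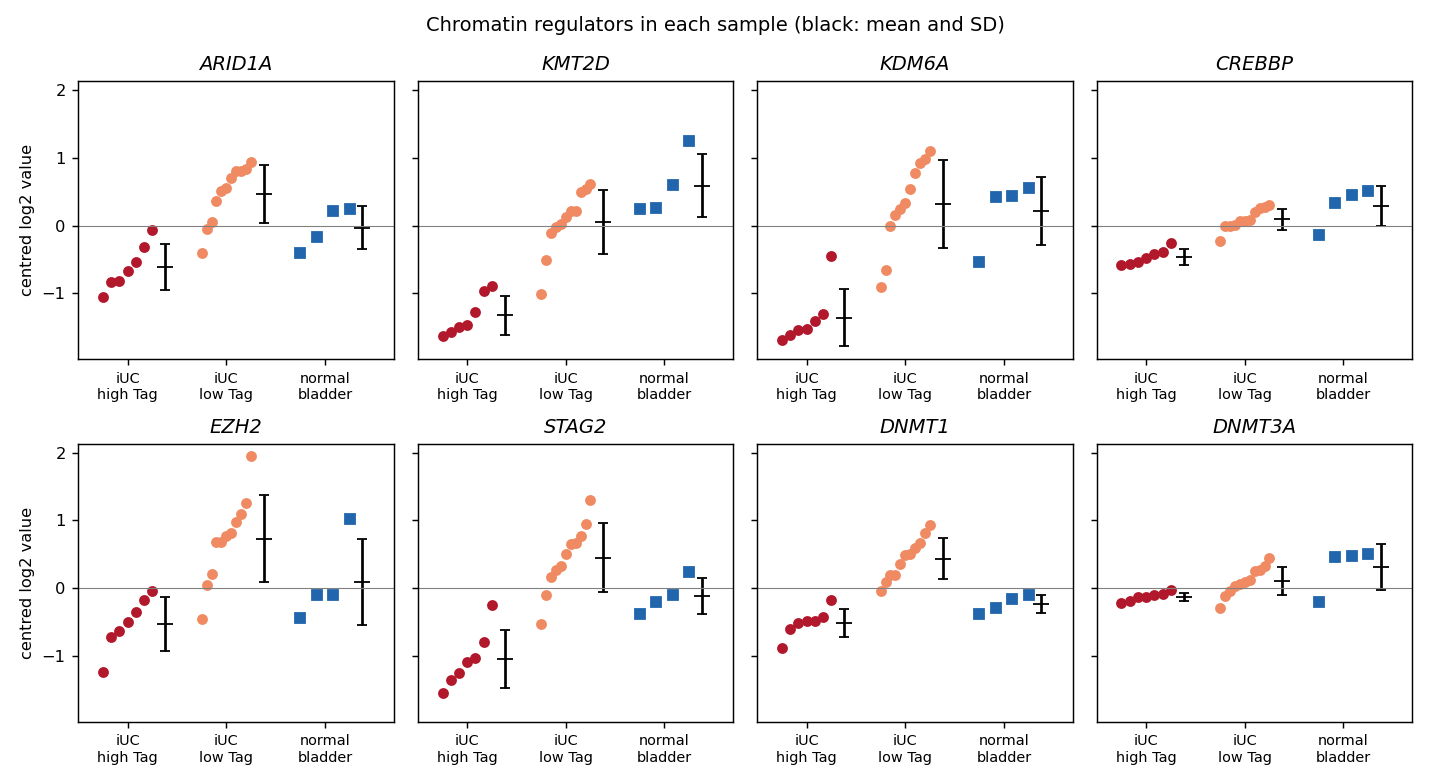
Each panel shows 1 regulator, with its centred log2 value on the vertical axis in 7 iUC samples of the high Tag set, 11 iUC samples of the low Tag set and 4 normal bladder samples; black marks give mean and SD. In each panel the mean of the high Tag set is below that of the low Tag set, and for CREBBP and DNMT1 these 2 sets do not overlap.

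KMT2D was the 1 regulator called. Over the 18 iUC samples its value ran from -1.62 to 0.62 with a median of -0.31. In normal bladder it was 0.25, 1.25, 0.27 and 0.60 in replicates 1 to 4. Of the iUC samples 15 lay below the lowest normal sample and 0 above the highest, so the groups overlapped only through 3 iUC samples. The log2 change was -1.07 (SE 0.40, 95% interval -1.91 to -0.24, limma adjusted p = 0.0423). The call was lost without normal replicate 2, 3 or 4, where the change was -0.86, -1.18 and -1.07 (adjusted p = 0.155, 0.0732 and 0.102). Without replicate 1 the change was -1.19 (adjusted p = 0.0488). Of all genes 14.6%, 12.1%, 8.69% and 8.37% were called without replicate 1, 2, 3 or 4, beside 12.3% with all 4. The KMT2D call was also lost after quantile normalization (-0.76, adjusted p = 0.154) and in the low Tag set alone (-0.54, adjusted p = 0.116).

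KDM6A, the H3K27 demethylase that shares complexes with KMT2D, ran from -1.69 to 1.10 in iUC samples with a median of -0.23. In the 4 normal samples it was -0.54, 0.55, 0.43 and 0.42. The iUC values spread across the normal range, with 8 samples below it and 4 above it. Its log2 change was -0.55 (SE 0.50, adjusted p = 0.385). CREBBP, an acetyltransferase of enhancer histones, was narrower, from -0.58 to 0.31 in iUC samples with a median of -0.01. It was -0.14, 0.45, 0.33 and 0.51 in normal bladder. No iUC sample exceeded the highest normal sample and 8 lay below the lowest. The log2 change of CREBBP was -0.41 (SE 0.17, adjusted p = 0.0594).

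ARID1A, the BAF subunit, ran from -1.05 to 0.94 in iUC samples with a median of 0.00. In normal bladder its values were 0.21, 0.25, -0.17 and -0.41. Samples of iUC lay on both sides of the normal range, 8 above and 6 below, and the log2 change was 0.07 (SE 0.33, adjusted p = 0.87). STAG2, the cohesin subunit, had the same shape, from -1.55 to 1.30 in iUC samples with a median of 0.03. Normal bladder gave -0.38, -0.21, -0.10 and 0.24. Again 8 iUC samples lay above the normal range and 7 below it, and the log2 change was -0.02 (SE 0.43, adjusted p = 0.977).

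EZH2, the PRC2 methyltransferase, ran from -1.24 to 1.94 in iUC samples with a median of 0.13. In normal bladder it was -0.10, 1.02, -0.09 and -0.43, so that normal replicate 2 lay above 15 of the 18 iUC samples. Its log2 change was 0.14 (SE 0.43, adjusted p = 0.80). DNMT1, the maintenance DNA methyltransferase, ran from -0.88 to 0.93 in iUC samples with a median of 0.14. The normal samples lay close together at -0.38, -0.10, -0.16 and -0.29. Of the iUC samples 11 lay above all 4 normal samples and 6 below them. The log2 change of DNMT1 was 0.30 (SE 0.27, adjusted p = 0.371). DNMT3A, which sets new DNA methylation, had the narrowest range of the 8, from -0.29 to 0.44 in iUC samples with a median of -0.04, against -0.20, 0.50, 0.48 and 0.46 in normal bladder. No iUC sample reached normal replicates 2 to 4, and the log2 change was -0.29 (SE 0.13, adjusted p = 0.0734).

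For the regulators other than KMT2D and DNMT3A, the iUC samples below the normal range were mostly those of the high Tag set. In that set 8 of 8 regulators were lower than in the low Tag set, each past an adjusted p of 0.05, and 5 were called. KDM6A differed by -1.68 on the log2 scale (SE 0.26, adjusted p = 2.2e-05), STAG2 by -1.49 (SE 0.22), KMT2D by -1.38 (SE 0.19), EZH2 by -1.25 (SE 0.26) and ARID1A by -1.07 (SE 0.18). DNMT1 (-0.95, SE 0.13), CREBBP (-0.55, SE 0.07) and DNMT3A (-0.23, SE 0.08) differed by less than 2-fold. For CREBBP, values ran from -0.58 to -0.25 in the high Tag set and from -0.23 to 0.31 in the low Tag set. For DNMT1 they ran from -0.88 to -0.18 in the high Tag set and from -0.04 to 0.93 in the low Tag set, so neither gene overlapped between the sets. Of all genes 13% were called lower and 2.75% higher in this comparison, 36.1% were lower at the adjusted p alone, 50.9% had a change below 0, and 12.8% were lower with no overlap. The direction held for 8 of 8 under quantile normalization, where 7 passed the adjusted p and 3 were called, beside 46.7% of all genes below 0, 24.7% lower at the adjusted p and 4.29% called lower. It also held for 8 of 8 under scaling to the 75th percentile, where 8 passed and 6 were called, beside 55.6%, 39.4% and 15.1% of all genes. At probe set level 16 of 16 were lower in the high Tag set, 15 past the adjusted p and 12 called, beside 34.7% and 16% of all probe sets. Those of CREBBP differed by -1.09 (called), -0.48 and -0.10, and those of DNMT1 by -1.19 (called) and -0.70. Other measures moved with the sets, and their part in these differences was not tested. Averaged control probe sets for actin and GAPDH had a median of -0.66 in the high Tag set (-1.28 to -0.48) and 0.18 in the low Tag set (-0.79 to 0.38), beside -0.55 to 0.41 on the normal arrays. The mean over all probe sets of an array lay between -0.10 and -0.07 in the high Tag set and between 0.07 and 0.09 in the low Tag set, with no overlap. The spread of values on an array, as SD, was 0.55 to 0.80 in the high Tag set and 0.37 to 0.50 in the low Tag set, the cell division mean had a median of -0.13 in the high Tag set and 0.70 in the low Tag set, and the urothelial mean a median of -0.17 in the high Tag set and 0.36 in the low Tag set.

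**Figure D2:**
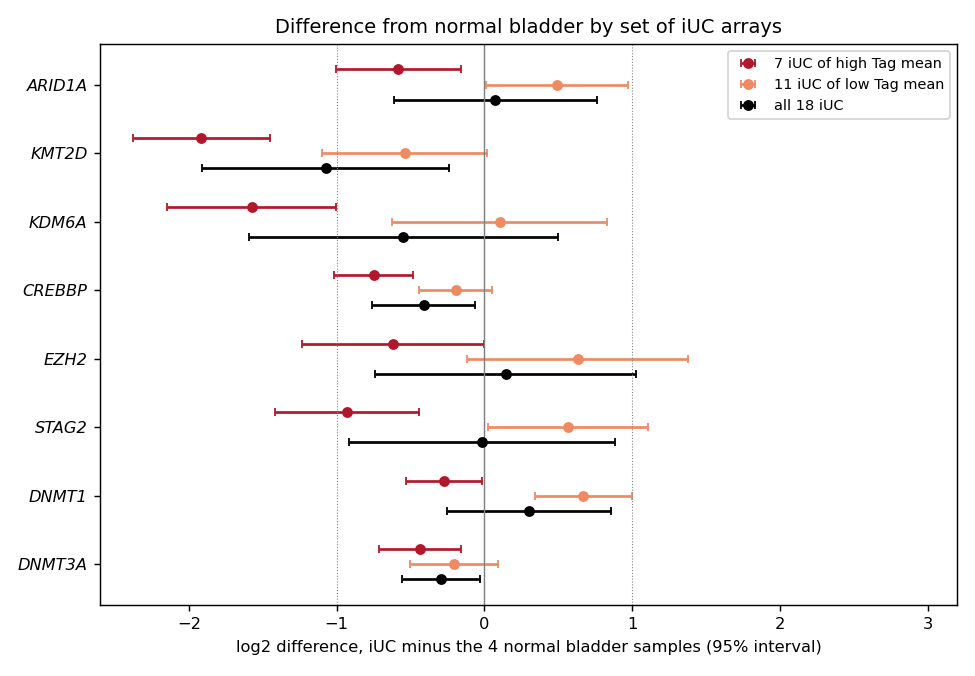
Points give the log2 difference from the 4 normal bladder samples on the horizontal axis, with the 95% confidence interval, for the high Tag set, the low Tag set and all 18 iUC samples; dotted lines mark 2-fold. All 8 points of the high Tag set lie below 0, while in the low Tag set DNMT1 (0.67), STAG2 (0.56) and ARID1A (0.49) are above 0 with their whole intervals.

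Set against normal bladder, the 2 sets gave different calls. In the high Tag set 8 of 8 regulators lay below normal bladder, with a median change of -0.68 beside 0.05 over all genes. Of the 8, 2 were called lower, KMT2D (-1.92, SE 0.21, adjusted p = 1.94e-05) and KDM6A (-1.57, SE 0.26, adjusted p = 0.000311), beside 17.4% of all genes called lower. KMT2D lay below the lowest normal sample in 7 of 7 samples of this set and in 8 of 11 of the low Tag set. In the low Tag set 0 of 8 were called by limma, beside 11.2% of all genes in either direction. At an unadjusted p of 0.05 there were 3, ARID1A (0.49), STAG2 (0.56) and DNMT1 (0.67), beside 27.3% of all genes higher at that p. DNMT1 passed the adjusted p with a change under 2-fold (SE 0.15, 95% interval 0.34 to 1.00, adjusted p = 0.00429), beside 21.1% of all genes that were higher at the adjusted p alone. All 11 low Tag samples lay above the highest normal sample for DNMT1, but the share of all genes of which this holds was not counted. The adjusted p of DNMT1 in this set was 0.0152 after quantile normalization and 0.00101 after scaling to the 75th percentile. EZH2, the other enzyme linked to dividing cells, was 0.63 above normal bladder in the low Tag set (SE 0.35, adjusted p = 0.168).

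Probe sets of 1 gene did not always move alike. Of the 16 probe sets 1 was called lower between iUC and normal bladder, that of KMT2D, beside 10.7% of all probe sets, and 2 were lower at the adjusted p alone, beside 19.4%, the other being 1 of the 3 of CREBBP (-0.56, SE 0.18, adjusted p = 0.0222). For ARID1A 1 probe set changed by -0.58 (SE 0.36) and the other by 0.72 (SE 0.36) on the log2 scale. For STAG2 the 4 probe sets changed by -0.67 (SE 0.51), 1.16 (SE 0.53), -0.52 (SE 0.43) and -0.05 (SE 0.33). None of these changes passed the limma adjusted p, the lowest being 0.0856 for the STAG2 change of 1.16. The probe sets of STAG2 spanned 1.83, those of ARID1A 1.30 and those of KDM6A 0.98, beside a median span of 0.55 over 8254 genes with 2 or more probe sets. Those of CREBBP spanned 0.62 and those of DNMT1 0.30. Of such genes 40.5% held probe sets whose changes differed in sign. A gene mean near 0, as for ARID1A and STAG2, thus joined estimates of opposite sign.

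The STAG2 probe set with the change of 1.16 stood apart. It ran from -1.22 to 2.15 in iUC samples with a median of 0.39, and was -0.08, -1.37, -1.20 and -0.66 in normal bladder. Of the iUC samples 12 lay above its highest normal value, 11 of them the whole low Tag set. The share of all probe sets with the whole low Tag set above normal bladder was not counted. Across the 22 arrays it followed the other 3 STAG2 probe sets with correlations of 0.63, 0.66 and 0.81, while those 3 correlated with each other at 0.91 to 0.97. In the low Tag set it was 1.82 above normal bladder (SE 0.36, adjusted p = 0.00178), and the ARID1A probe set with the change of 0.72 was 1.16 above it there (adjusted p = 0.00544). These 2 were called higher there, beside 5.04% of all probe sets, and the remaining probe sets of both genes were not. The pair of ARID1A probe sets correlated at 0.46, the pair of KDM6A at 0.89 and the pair of DNMT1 at 0.86. For CREBBP the correlations were 0.85, 0.35 and 0.36, the lower ones both with the probe set that differed by -0.10 between Tag sets. Which transcripts each probe set reports was not examined.

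**Figure D3:**
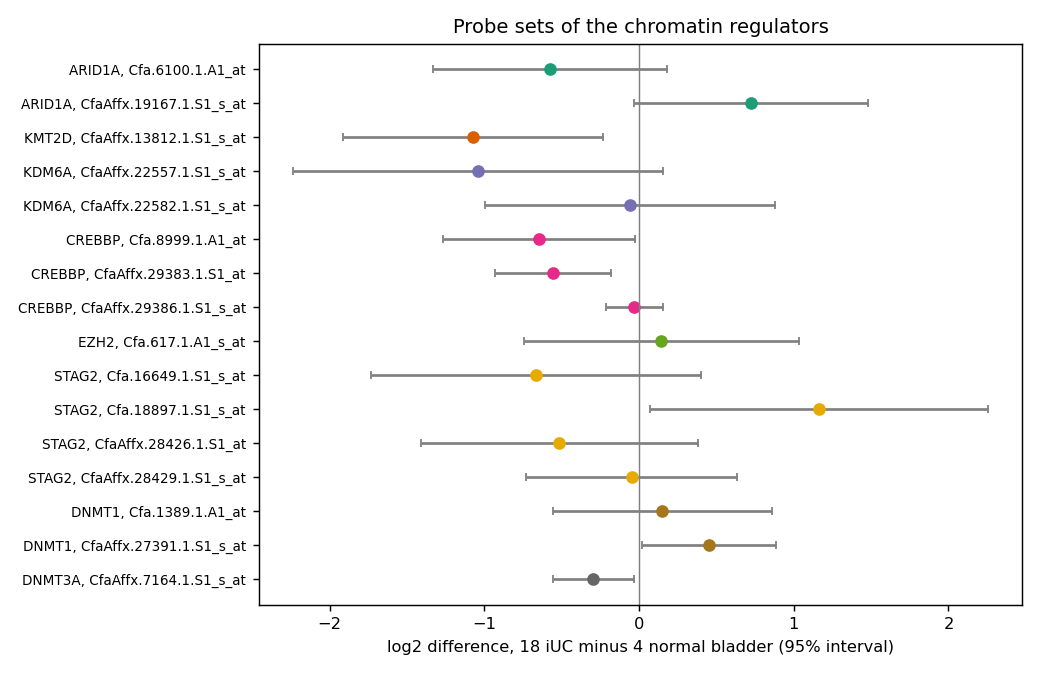
The horizontal axis gives the log2 difference of 18 iUC minus 4 normal bladder samples with its 95% confidence interval for each of the 16 probe sets, coloured by gene. STAG2 has 1 probe set at 1.16 and 3 below 0, and the 2 ARID1A probe sets lie on opposite sides of 0.

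Since EZH2 and DNMT1 are used by dividing cells, the change of each regulator with the mean of 24 cell division genes, none of them a member, was fitted among the 18 iUC samples with the Tag set as a term. The slope of DNMT1 was 0.43 (SE 0.10, limma adjusted p = 0.0504), that of KDM6A 0.81 (SE 0.23, adjusted p = 0.104), that of EZH2 0.69 (SE 0.24, adjusted p = 0.179) and that of STAG2 0.53 (SE 0.22, adjusted p = 0.235). With limma 0 of 8 passed the adjusted p, beside 0.86% of all genes with a positive slope, and 5 passed an unadjusted p of 0.05, beside 6.42%. Without the Tag term 8 of 8 passed the adjusted p, beside 24.9% of all genes with a positive slope. For the smooth muscle mean 0 of 8 slopes passed, beside 0.0794% of all genes with a positive slope, and 1 did at an unadjusted p of 0.05, that of DNMT1 (0.22, SE 0.10), beside 4.34%.

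The regulators were next read beside the other genes of their complexes. Of 118 such genes in 6 lists 104 were measured. Between iUC and normal bladder 3 were called higher and 8 lower, which is 10.6% of them beside 12.3% of all genes, with a median change of 0.03 beside 0.08. In PRC2 and its relatives, 1 of 24 was higher and 3 were lower. RBBP4, EED and AEBP2, a histone-binding subunit, the subunit that reads H3K27 methylation and an accessory subunit, differed by -1.34 (SE 0.27, adjusted p = 0.000637), -1.27 (SE 0.40, adjusted p = 0.0191) and -1.30 (SE 0.29, adjusted p = 0.00183). EZH1, the paralog of EZH2, was 0.80 (SE 0.17, adjusted p = 0.00154), a change under 2-fold, and SUZ12 was -0.05 (adjusted p = 0.919). Of the PRC2 genes named here, EZH1 and EZH2 thus lay above 0, neither of them called, and the others below 0. PCGF2, a subunit of the other Polycomb complex, was 1.03 (SE 0.23). EED lost its call without normal replicate 2, 3 or 4 (adjusted p = 0.056, 0.0645 and 0.064), while its change stayed at -1.21, -1.23 and -1.23. PCGF2 changed by less than 2-fold without replicate 4 (0.90).

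In the BAF complex of ARID1A 3 of 22 subunits were lower and 0 higher. SMARCD3, a subunit known from muscle, ran from -0.30 to 0.32 in iUC samples and from 1.15 to 3.40 in normal bladder, with a log2 change of -2.53 (SE 0.22, adjusted p = 2.11e-08) and no overlap. The smooth muscle marker mean was lower in the same samples, and its part in the change was not tested between the groups. Within iUC the slope of SMARCD3 on that mean was 0.12 (SE 0.06, limma adjusted p = 0.722). In that fit 0.0794% of all genes passed the adjusted p with a positive slope. SMARCA2, an ATPase of the complex, was -1.08 and lost its call without normal replicate 2, 3 or 4 (adjusted p = 0.0734, 0.0814 and 0.0808). BRD7 was -1.03 and changed by less than 2-fold without normal replicate 2, while ARID1B, the paralog of ARID1A, was 0.20 (SE 0.15, adjusted p = 0.298) and SMARCA4, the paralog of SMARCA2, was 0.16 (SE 0.30, adjusted p = 0.677). Among cohesin genes 1 of 15 was lower, STAG1, the paralog of STAG2. STAG1 ran from -0.86 to 0.30 in iUC samples with a median of -0.20, and from 0.03 to 2.40 in normal bladder. The log2 change was -1.60 (SE 0.29, adjusted p = 0.000264). After quantile normalization it was -0.94, under 2-fold, and by an unpaired test of each gene its adjusted p was 0.109. CDCA5, SGO1 and ESCO2, which act on cohesin in dividing cells, were 0.91, 0.94 and 0.98 with adjusted p-values under the threshold and changes under 2-fold.

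Among methyltransferases and partners of KMT2D 2 of 18 were higher, RBBP5, a core subunit shared by these enzymes, at 1.55 (SE 0.29, adjusted p = 0.000366) and HCFC1 at 1.13 (SE 0.42, adjusted p = 0.0396). The call of HCFC1 was lost without any 1 of the 4 normal samples (adjusted p from 0.0502 to 0.104). HCFC1 ran from 1.25 to 1.93 in the high Tag set and from -0.25 to 0.38 in the low Tag set, with no overlap. In the low Tag set alone, HCFC1 (0.49), PCGF2 (0.77), EED (-0.72), AEBP2 (-0.96), SMARCA2 (-0.77) and BRD7 (-0.66) each differed from normal bladder by less than 2-fold. All of these except SMARCA2 (adjusted p = 0.0905) still passed the adjusted p there, from 0.00387 for PCGF2 to 0.0252 for BRD7. WDR5, another core subunit, was -0.80 (SE 0.28, adjusted p = 0.0287), a change under 2-fold. KAT2B, an acetyltransferase, was the 1 of 13 genes lower in the list around CREBBP, at -1.61 (SE 0.25, adjusted p = 6.52e-05). KAT2B and RBBP4 changed by -0.98 and -0.85 after quantile normalization, under 2-fold, and had adjusted p-values of 0.102 and 0.106 by the unpaired test. Of the 11 called genes of the lists, SMARCD3 and RBBP5 alone were called after quantile normalization. In the DNA methylation list 0 of 12 were called by limma and 0 by the unpaired test, with 6 at an unadjusted p of 0.05, beside 48.7% of all genes. TET2, which oxidises methylated cytosine, was 0.43 (SE 0.09, adjusted p = 0.000703). Between Tag sets 74 of the 104 genes, 71.2%, lay below 0 in the high Tag set, beside 50.9% of all genes, and 15.4% were called lower, beside 13%.

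**Figure D4:**
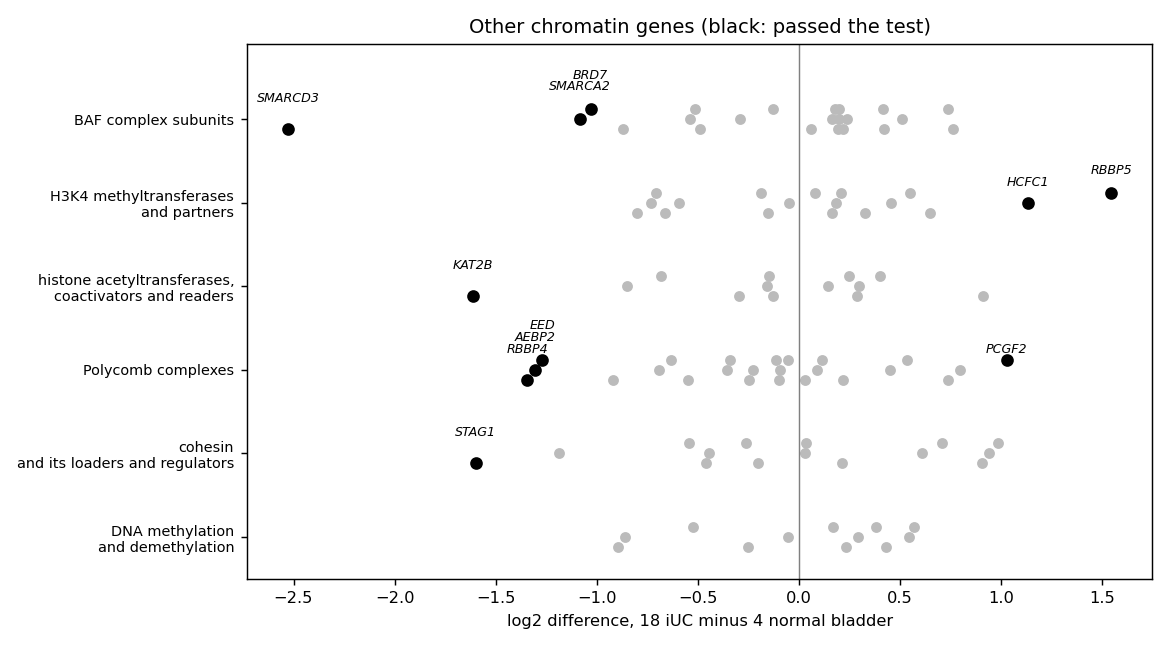
Each point is 1 of 104 genes in 6 lists of chromatin complexes, with its log2 difference of 18 iUC minus 4 normal bladder samples on the horizontal axis and black for genes called. The 8 black points below 0 include STAG1, SMARCD3 and the Polycomb genes RBBP4, AEBP2 and EED, and the 3 above 0 are RBBP5, HCFC1 and PCGF2.

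Likeness to other genes was read as the Pearson correlation over the 22 arrays after the mean of normal bladder and of each Tag set had been subtracted; arrays share the subtracted means, and no test was made. DNMT1 was most like AURKB (0.84), a kinase of dividing cells, DDX39A (0.81) and DCK (0.80), a kinase that salvages nucleosides for DNA. EZH2 was most like NLK (0.80), BIRC5 (0.80), which acts in chromosome segregation, and TUBD1 (0.79). KMT2D was most like SLC11A2 (0.76), H2AJ (0.76) and KLHL42 (0.75). ARID1A had ANKRD9 (0.87), LOC480784 and SRSF4 (0.85 each), KDM6A had LOC609048, TXLNG (0.82 each) and ZNF518B (0.79), and STAG2 had LOC481033 (0.85), MORF4L2 (0.81) and CUL4B (0.80). CREBBP was most like DYNC2I1 (0.81), THAP11 and REC8 (0.78 each), and DNMT3A like MARK3, CCDC18 (0.83 each) and YLPM1 (0.82). Among themselves the regulators correlated from -0.33, for ARID1A with STAG2, to 0.68, for STAG2 with DNMT1, with 21 of 28 pairs above 0.

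Several of these genes share a chromosome with the regulator they resemble, among them all 3 of KMT2D. Of the 50 genes most like each regulator, 16 lay on its own chromosome for ARID1A, 10 for KMT2D and 17 for STAG2, where those chromosomes hold 3.82%, 2.58% and 3.57% of all genes. Over all genes the median of this count was 2, and 4.46%, 11.2% and 3.82% of genes had counts as high as these. With the 18 iUC arrays alone the counts were 22, 17 and 21, reached by 2.9%, 5.69% and 3.41% of genes. Within the low Tag set the count of STAG2 was 25, that of KMT2D 12 and that of ARID1A 16, reached by 0.668%, 6.02% and 3.12% of genes. Within the 7 arrays of the high Tag set they were 5 for STAG2, 2 for KMT2D and 8 for ARID1A, reached by 16.2%, 54.7% and 6.48% of genes. Over the 22 arrays KDM6A, on the X chromosome like STAG2, had 4, as did CREBBP and EZH2, reached by 36.7% of genes. DNMT1 had 8 (15.2%) and DNMT3A 2 (64.5%). With the 18 iUC arrays EZH2 had 9 (15.6%), DNMT1 8, KDM6A 5, CREBBP 2 and DNMT3A 1. Within the low Tag set DNMT1 had 12 (6.02%), the same as KMT2D, while EZH2 had 6, CREBBP 2, KDM6A 1 and DNMT3A 0. DNA copy number was not measured, the sex of the dogs was not used, and their part in these counts was not tested.

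**Figure D5:**
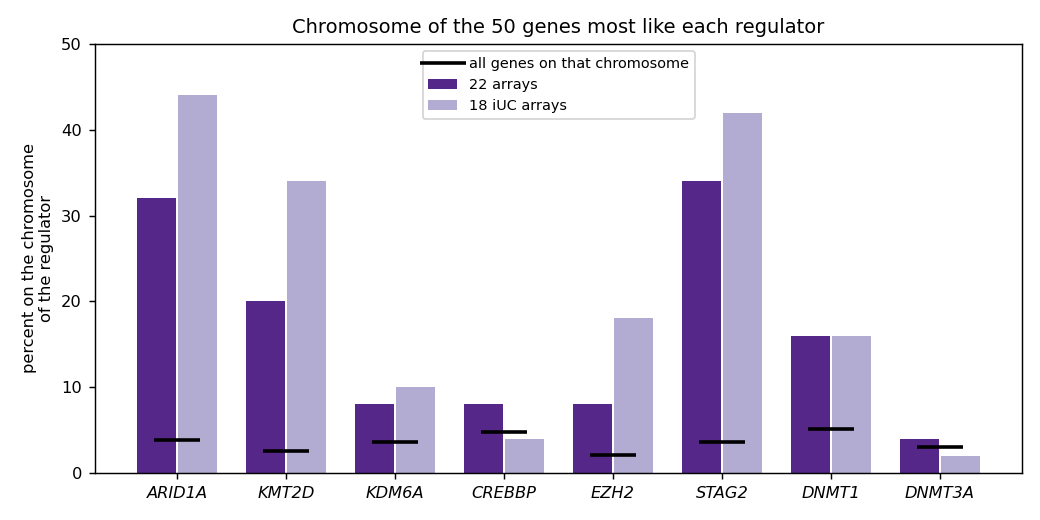
Bars give the percentage of the 50 genes most like each regulator that lie on its chromosome, over all 22 arrays and over the 18 iUC arrays, and black lines the percentage of all genes on that chromosome. ARID1A, KMT2D and STAG2 stand at 32%, 20% and 34% over the 22 arrays, each above its line. The other regulators also lie above their lines there, from 4% for DNMT3A to 16% for DNMT1.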

How the data were processed

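RNA of 18 iUC and 4 normal bladder samples was hybridised to Affymetrix Canine 2.0 arrays. The authors processed them in GeneSpring GX. The deposited table holds log2 values for 43035 probe sets, each centred on its median over the 22 arrays (within 5e-07 of 0). How probes were summarised and arrays normalized was not given in the sources used here. Centred values keep no level, so no filter on low expression was possible. Precision is limited by the number of arrays, above all the 4 normal ones.

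Without 111 control probe sets 42924 remained, of which 29254 had 1 gene symbol in the platform annotation. Averaging these by symbol gave 15115 genes. A RefSeq table of dog genes was used only to find genes on the same chromosome. The main fit was limma 3.58.1 (R 4.3.3) with lmFit, eBayes and the group alone as term, and p-values were adjusted after Benjamini and Hochberg over all genes or all probe sets. Genes with an adjusted p up to 0.05 and at least a 2-fold change were called. Tables and figures used Python 3.11, pandas 2.3.3 and matplotlib 3.10.9. Tag sets were parted at the widest gap between iUC arrays in the mean of 17 Tag control probe sets, at 0.204. Alternatives covered scaling (quantile, 75th percentile), array weights, an unpaired test of each gene, with adjusted and raw p, each normal sample left out, normal replicates 3 and 4 joined, the replicate number, label ending or Tag mean as a term, each Tag set alone, and medians of probe sets.

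Named genes are the regulators and their probe sets, up to 4 called genes in each direction of each chromatin list and 2 of each marker list by size of change, and the 3 genes most like each regulator. EZH1, SUZ12, ARID1B, SMARCA4, CDCA5, SGO1, ESCO2, WDR5 and TET2 were added for their roles after their values were seen. The members and lists were chosen with earlier results of these data known. On simulated data with 50 of 15115 genes changed at each size, 18 arrays against 4 gave calls for 32% of genes changed by 1 on the log2 scale, 76% for 1.5, 94% for 2 and 100% for 3, and 1 false call.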

Additional observations from a re-analysis of the deposited data

Results flagged for a closer look

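Normal bladder replicate 1 stood apart from the other 3 normal samples, by the ratio of its gap to the whole range, in values of 3 of the 8 regulators. Of 24 groups of normal values looked at, 5 were flagged. Chance flags about 1 in 20 independent groups. These values come from 1 sample, and gene means share values with their probe sets, so their number was not set against that rate. Across probe sets replicate 1 correlated with replicates 2, 3 and 4 at 0.43, 0.62 and 0.56, while those 3 correlated with each other at 0.68 to 0.93. In how many of all genes it stood apart was not counted. This sample alone among the normal ones carries the label ending that the iUC samples share. For KDM6A it had -0.54 where the others lay between 0.42 and 0.55 (ratio 0.879), and for the KDM6A probe set with the larger change -0.68 where the others lay between 0.68 and 0.84 (ratio 0.896). For DNMT3A, and so for its only probe set, it had -0.20 where the others lay between 0.46 and 0.50 (ratio 0.947). For the CREBBP probe set with the largest change of its 3 (-0.65) it had -0.17 where the others lay between 0.48 and 0.55 (ratio 0.903). In each case it was the lowest normal sample. Without it the log2 change was -0.47 for DNMT3A (adjusted p = 0.0062) and -0.55 for CREBBP (adjusted p = 0.022), both under 2-fold.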

How the results depend on the processing

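Of the 8 regulators 1 was called, and 0 were called after either scaling (quantile or 75th percentile), with array weights, joining normal replicates 3 and 4 (correlated at 0.934 across probe sets), with the replicate number, the label ending or the Tag mean as a term, and in the low Tag set, while 2 were called in the high Tag set and 0 to 1 when 1 normal sample was left out (0 without replicate 2, 3 or 4). The replicate numbers belong to different dogs and do not pair the samples (correlations of -0.17, 0.06, -0.05 and 0.13). Only normal replicate 1 shares its label ending with iUC samples, so the fit with that ending rests on that 1 normal sample. Probe sets called numbered 1, and 0 after either scaling, with normal replicates 3 and 4 joined, with the replicate block and with the label ending, 2 with array weights, with the Tag mean, in the low Tag set and by the unpaired test without adjustment, 6 in the high Tag set, and 0 to 2 without 1 normal sample (2 without replicate 1, 0 without any other). Called genes of the 6 lists numbered 11, and 2 after quantile normalization, 7 with normal replicates 3 and 4 joined and by the adjusted unpaired test. There were 3 with the replicate block, 31 in the high Tag set, and 7 to 15 without 1 normal sample (7 without replicate 4). Of all genes 12.3% were called, and 4.8% after quantile normalization, 12.5% after scaling to the 75th percentile and 15.9% with array weights. The share was 8.54% with replicates 3 and 4 joined, 8.35% by the adjusted unpaired test and 3.73% with the replicate block. It was 12.2% with the Tag mean, 11.2% in the low Tag set and 24.5% in the high Tag set. Without 1 normal sample it was 8.37% to 14.6%. SMARCD3 was called under each of 16 alternatives. Slopes on the cell division mean passed for 1 regulator after quantile normalization (KDM6A), 1 after scaling (DNMT1) and 8 without the Tag term. Between Tag sets 3 regulators were called after quantile normalization instead of 5. Signs turned with the label ending for ARID1A (-0.17), KDM6A (0.20), CREBBP (0.012), STAG2 (0.25), DNMT3A (0.22) and SMARCA2 (0.0039), with the Tag mean for KDM6A (0.63) and STAG2 (0.98), and in the low Tag set for KDM6A (0.10) and STAG2 (0.56). They turned in the high Tag set for ARID1A (-0.58), EZH2 (-0.62) and DNMT1 (-0.28), without normal replicate 4 for ARID1A (-0.052, and up to 0.17 without replicate 2), EZH2 (-0.032, and up to 0.45 without replicate 2) and STAG2 (0.10, and down to -0.11 without replicate 1), with replicates 3 and 4 joined for ARID1A (-0.012) and STAG2 (0.044), and with the replicate block for EZH2 (-0.080). STAG2 was also positive after quantile normalization (0.22), scaling (0.10) and array weights (0.28). Of all called genes 29.9% were higher, 40.6% after quantile normalization and 42.8% after scaling to the 75th percentile, which moved the median of all genes by 0.12. The cause of these differences was not tested.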
